A study of Mus musculus with 12 samples.

Results

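The heterogeneous nuclear ribonucleoprotein (hnRNP) genes and the RNA binding motif (RBM) genes were examined in U2OS cells, a human osteosarcoma cell line, after knockdown of the splicing factor SRSF1 and after overexpression of the long non-coding RNA LINC01134. They were the protein-coding genes whose full name in the deposited table begins with either phrase. The rule itself used no expression value, but earlier results of these data were known when it was chosen. The rule gave 74 of the 58735 genes, 26 named hnRNP and 48 named RBM. There were 12 RNA libraries, 3 for each of 4 groups of the same cell line. The first group, blank, had no treatment named in the labels. The siSRSF1-2 and siSRSF1-3 groups received different small interfering RNAs against SRSF1, and in the OE-LINC01134 group LINC01134 was upregulated. No library from cells with a control siRNA or an empty vector was among the samples, so the effect of transfection cannot be told apart from that of SRSF1 or LINC01134. The labels do not say whether the replicates came from separate cultures. The study speaks of experimental repeats in describing these libraries and, in its methods, of biological replicates, with fewer per condition there than the labels hold. The p-values measure the spread between these libraries, which may in part be technical.

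hnRNP proteins coat nascent transcripts in the nucleus, and many of them bind silencer elements and block the use of nearby splice sites. SR proteins such as SRSF1 bind enhancer elements and favour splice-site use, so the 2 kinds of factor often compete over the same exon. HNRNPA1 is the textbook antagonist of SRSF1 in the choice between competing 5′ splice sites. The RBM genes are a looser group held together by an RNA recognition motif, with parts of the spliceosome and the exon junction complex, adaptors of the m6A methylation machinery, ribosome assembly factors and regulators found mainly in muscle or germ cells. Many genes of both kinds adjust their own mRNA level through alternative splicing.

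The values are FPKM, which divide a gene's fragments by its length and by the size of the library and so allow levels to be compared between genes. A gene was tested where its mean FPKM over the 12 libraries was at least 0.5, which held for 17538 genes and 59 of the members, 22 hnRNP and 37 RBM. The 15 members that did not pass were RBM34, RBM47, RBMS3, RBM44, RBM46, HNRNPCL1, HNRNPCL2, HNRNPCL3, HNRNPCL4 and 6 RBMY1 copies. In 7 of these members no read was found in any library, where a count of 0 allows up to 3 reads per library. Differences are on the scale log2(FPKM + 0.1), and a gene was called at an adjusted p under 0.05 in limma over all tested genes.

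The libraries held 26237763 to 32954539 reads on genes. SRSF1 was at 35.9, 19.8 and 20.5 FPKM in blank replicates 1 to 3, at 7.09, 7.46 and 7.41 with siSRSF1-2, at 3.33, 6.81 and 7.90 with siSRSF1-3, and at 31.8, 29.6 and 30.3 in OE-LINC01134. All 6 knockdown libraries lay below all blank libraries (log2 fold change -1.72 ± 0.232, limma adjusted p = 0.00500 with siSRSF1-2, and -2.09 ± 0.385, limma adjusted p = 0.0518 with siSRSF1-3, where ± is the SE; exact permutation p = 0.1 for each, the smallest that 3 against 3 libraries allow). In bulk libraries fewer cells with a transcript and less of it per cell cannot be told apart. LINC01134 was between 0.497 and 0.791 FPKM in the blank libraries and at 891, 1280 and 878 in OE-LINC01134. Of the markers of mesenchymal and bone-forming cells, VIM, COL1A1, SPARC, RUNX2 and ALPL were present in every library, while COL1A2 was at or below 0.0131 FPKM. EPCAM reached 2.43 FPKM and CDH1 0.862, and PTPRC, PECAM1 and ALB stayed at or below 0.368.

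Several libraries stood apart from the others of their group in the members' reads. The chi-square statistic of the 59 members per degree of freedom was 76.4 and 82.8 between blank replicate 1 and the other blank libraries, but 3.81 between blank replicates 2 and 3. It was 307 and 324 between OE-LINC01134 replicate 2 and the others of its group, but 2.57 between OE-LINC01134 replicates 1 and 3, and it ranged from 107 to 280 within siSRSF1-3 and from 2.37 to 4.63 within siSRSF1-2. The nearly identical libraries differed by more than sampling noise and were kept as separate replicates, with an alternative that averages them. In siSRSF1-3 the share of reads on cytosolic ribosomal protein genes was 18.9%, 13.6% and 7.95% in replicates 1 to 3, against 6.30% to 7.69% in the other 9 libraries. The members together took 0.577%, 0.768% and 0.922% of the reads in these 3 libraries and 0.943% to 1.33% in the others.

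The hnRNP genes were the more abundant family. The median of the mean FPKM over the 12 libraries was 43.7 for the 22 tested hnRNP genes, 8.45 for the 37 tested RBM genes and 4.06 for all tested genes. Of the 25 members with a mean of 20 FPKM or more, 17 were hnRNP and 8 RBM. The tested members were also longer, with a median gene length of 5923 bases against 3701 for all tested genes. The highest mean level belonged to HNRNPA1 at 182 FPKM, followed by HNRNPK, which binds C-rich RNA, at 120, HNRNPAB at 111, HNRNPA2B1 at 86.3 and HNRNPF, which binds runs of G, at 85.9. Neighbours in this order from HNRNPK down did not differ beyond their spread: over the libraries HNRNPK ran from 69.7 to 156 FPKM, HNRNPAB from 67.5 to 168, HNRNPA2B1 from 46.6 to 188 and HNRNPF from 63.0 to 127. RBM3, a cold-inducible protein, and RBM42, a spliceosome-associated protein, led the RBM genes at 84.0 and 83.9 FPKM. Genes typed as pseudogenes take few of the families' reads: 194 of them held 15809 reads, or 0.476% of the members' own. The 78 of HNRNPA1 held 4473 reads, or 1.40% of its reads. HNRNPA1P48, a member because it is typed as protein-coding, is named as a pseudogene of HNRNPA1 and is not in these counts. It held 4063 reads over the 12 libraries, and whether it shares reads with HNRNPA1 was not tested. Of the 59 tested members, 22 overlap another protein-coding gene by coordinates, among them RBM5 and RBM6, which overlap each other, and RBM4 and RBM14, which both overlap the RBM14-RBM4 readthrough gene. How the counting split such reads is not given in the sources used here.

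**Figure D1:**
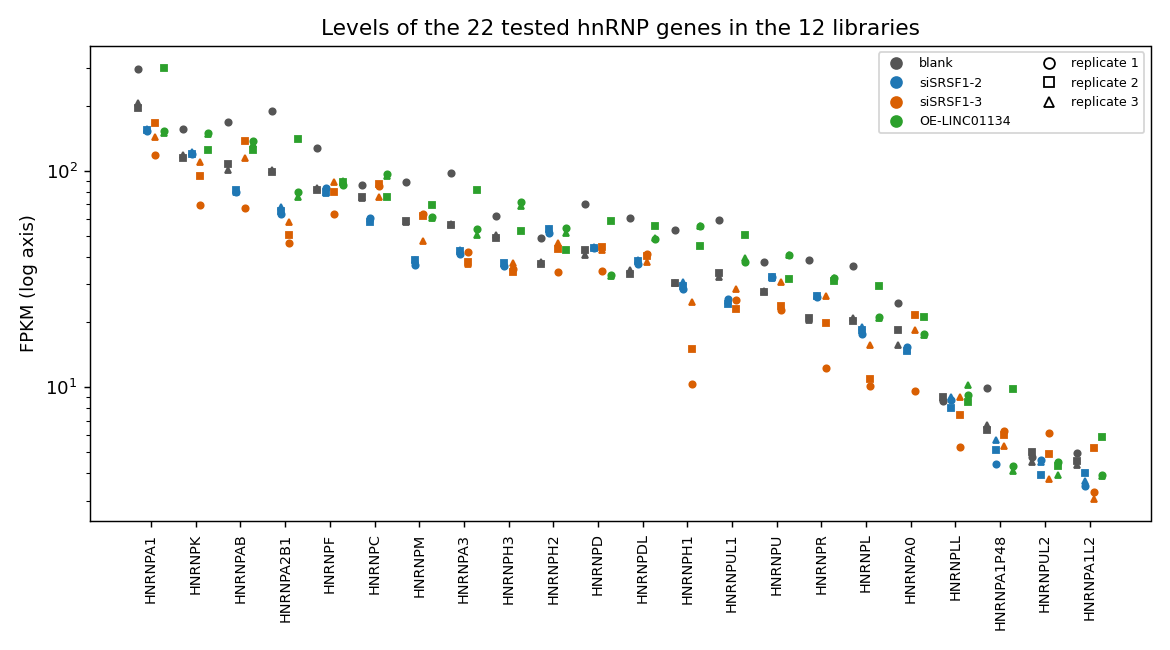
FPKM (log axis) of the 22 tested hnRNP genes, ordered by their mean, with a point for each of the 12 libraries, coloured by group and shaped by replicate number. Levels run from HNRNPA1, with a mean of 182 FPKM, down to single-digit FPKM, and blank replicate 1 (grey circle) lies above blank replicates 2 and 3 for most genes.

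Blank replicate 1 held more hnRNP mRNA than the other blank libraries. It lay above the mean of blank replicates 2 and 3 for 21 of 22 hnRNP genes, with a median log2 difference of 0.60, and for 30 of 37 RBM genes, with a median of 0.35. Over all tested genes the share above was 53.1% and the median 0.04. The gap reached 0.91 for HNRNPA2B1 and for HNRNPR, an mRNA-binding protein, and 0.81 for HNRNPH1 and HNRNPL, which bind runs of G and CA repeats. At the other end HNRNPLL, a relative of HNRNPL, differed by -0.06, and RBM11 by -1.31. The spread of the blank group was thus wide for these genes, with a median SD of 0.349 for hnRNP genes on the log2 scale against 0.0344 in siSRSF1-2.

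OE-LINC01134 replicate 2 departed from its group in fewer members, and 4 of the 5 largest gaps upward were HNRNPA1P48, HNRNPA1, HNRNPA2B1 and HNRNPD. HNRNPA1, at 300 FPKM there, was at 152 and 149 in OE-LINC01134 replicates 1 and 3, and in blank replicates 1 to 3 it was at 294, 195 and 205. HNRNPD, also called AUF1, which binds AU-rich elements and promotes mRNA decay, was at 58.6 FPKM in that library and at 32.9 and 32.6 in the other libraries of the group, and at 70.4, 42.9 and 40.7 in the blank libraries. For both genes, then, a library of each group stood high and the other 2 lay close together. Over all 22 hnRNP genes the library was higher for 13 and lower for 9 (median log2 difference 0.11), and for 25 of 37 RBM genes it was lower (median -0.13). Across the 59 members, the departure of blank replicate 1 and that of OE-LINC01134 replicate 2 correlated with r = 0.272 and rho = 0.370, a description across genes that are not independent, against r = 0.0988 over all tested genes. Because of these libraries, each comparison is given with and without them.

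**Figure D2:**
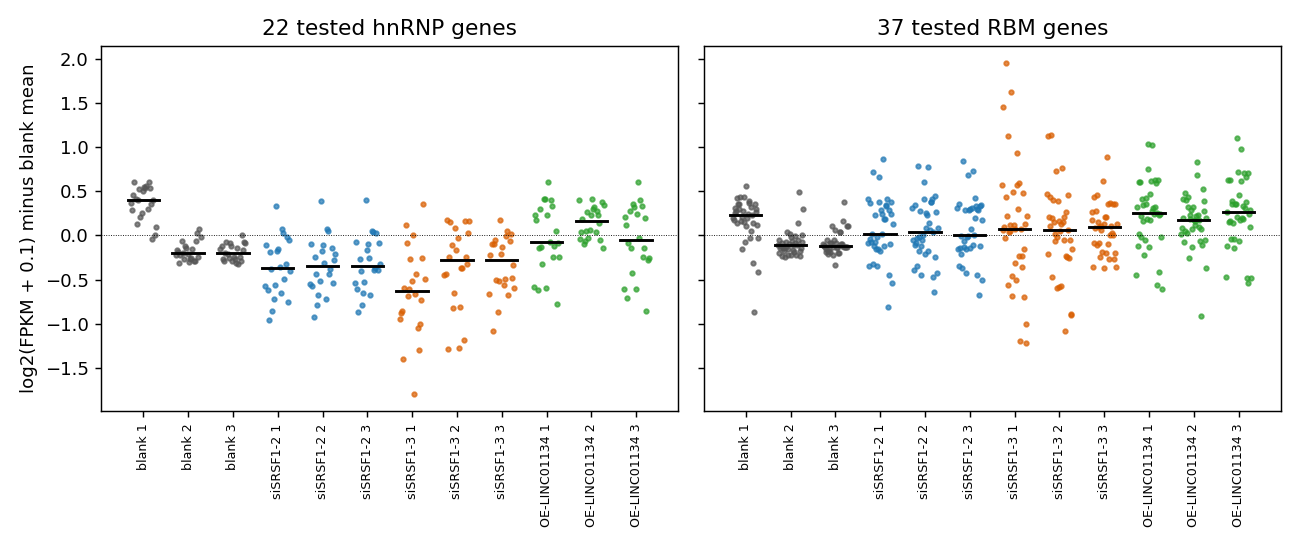
Difference of log2(FPKM + 0.1) from the mean of the 3 blank libraries for each tested hnRNP gene (left) and RBM gene (right) in every library, with the median as a black line. The hnRNP median is 0.40 in blank replicate 1, -0.37 to -0.34 in siSRSF1-2 and -0.63 to -0.28 in siSRSF1-3, while the RBM median stays between -0.12 and 0.27 in all libraries.

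With siSRSF1-2, every hnRNP gene called by limma was lower than in blank cells, among them HNRNPA1, HNRNPA2B1, HNRNPC and HNRNPM. RBM genes were called both ways, with RBM15, RBM25 and RBM48 higher. Of 59 members, 15 were called (limma), 7 higher and 8 lower, which is 25.4% of them, against 26.8% of all 17538 tested genes, so members were not called more often than other genes. The 6 hnRNP genes called were all lower, 27.3% of 22 against 12.8% of all genes called lower. Of 37 RBM genes, 7 were called higher, or 18.9%, against 14.0% of all genes, and 2 lower, or 5.41%, against 12.8%. No called member changed by more than 1 on the log2 scale, while 868 genes did in the whole table, or 4.95%. By voom on reads recovered from the FPKM, 22 members were called, 12 higher and 10 lower, with 29.1% of all genes. The split turned with the scaling: with FPKM brought to the same sum in every library 16 were higher and 4 lower (30.0% of all genes), and with each library's own read total 13 and 8 (27.3% of all genes), where the median of all genes moved from 0.02 to 0.15 and 0.06. Among the hnRNP genes voom called 1 higher and 7 lower, the same FPKM sum 1 and 4, and own read totals 1 and 7. The median of the 22 hnRNP genes was -0.33, and -0.20 and -0.29 under those scalings, against 0.02, 0.15 and 0.06 for all genes. Of the 22, 19 were below 0, where 51.7% of all genes lay above it, and 16 were without blank replicate 1. In 13 of the 22 the groups did not overlap, 12 of them below blank, which is 59.1% against 49.5% of all genes.

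These counts leaned on single libraries. Without blank replicate 1, 37 members were called, 20 higher and 17 lower, when 52.2% of all genes were, and the hnRNP median rose to -0.17 with 11 of 22 called lower, against 24.7% of all genes, and 4 higher. Without blank replicate 2 or 3 the members called fell to 8 and 6, with 18.4% and 17.8% of all genes, and without siSRSF1-2 replicate 1, 2 or 3 to 2, 1 and 1, with 12.1%, 10.7% and 10.4%. Over these 6 omissions RBM15 was called every time, HNRNPC 4 times, HNRNPH3, HNRNPM, RBM18 and RBM25 in 3 cases each, HNRNPA1 and HNRNPA2B1 in 2, and RBM48, RBM3, RBM5, RBM33, RBM43, RBMX2 and HNRNPA1L2 in 1. A fit with nearly identical libraries averaged sets 1 siSRSF1-2 value against 2 blank values and called 0.0% of all genes, so it says nothing about the members.

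**Figure D3:**
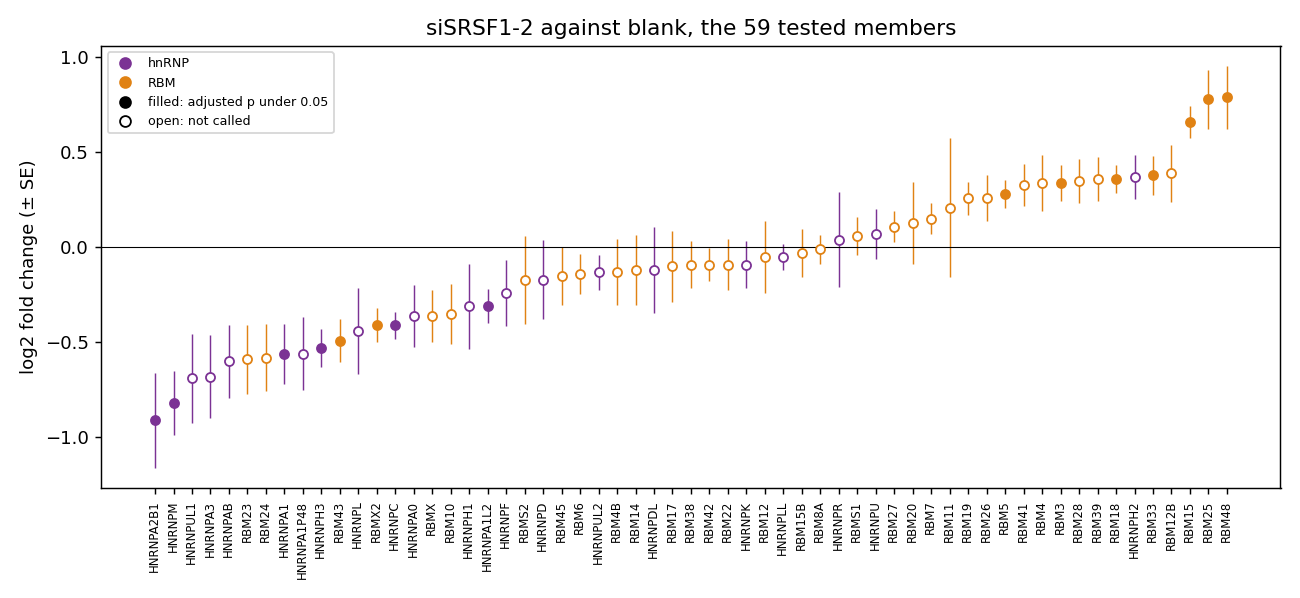
Log2 fold change (± SE, limma) of siSRSF1-2 against blank for the 59 tested members, ordered by value, 3 + 3 libraries. Filled points passed the adjusted p of 0.05: 6 hnRNP genes, all below 0, and 9 RBM genes, 7 of them above 0.

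The hnRNP A/B and D family, which holds the classical silencer-binding proteins, had log2 fold changes below 0 in all 8 tested genes, with a median of -0.46, and 3 were called lower, or 37.5%, against 12.8% of all genes. Without blank replicate 1, HNRNPD and HNRNPDL turned to 0.08 and 0.15, and HNRNPDL was then called higher. HNRNPA1 (ENSG00000135486, chromosome 12, 54280193 to 54287088, plus strand, with the build not given in the sources used here) was at 294, 195 and 205 FPKM in the blank libraries and at 153, 155 and 156 with siSRSF1-2. The siSRSF1-2 libraries were almost equal and lay below every blank library, and the log2 fold change was -0.56 ± 0.158 (limma adjusted p = 0.0466). HNRNPA2B1, which binds UAG-containing motifs and has roles in splicing and RNA transport, was at 188, 99.0 and 101 FPKM in blank and at 63.5, 65.2 and 67.8 with siSRSF1-2. It showed the largest fall among the called members at -0.91 ± 0.250 (limma adjusted p = 0.0424), and -0.61 without blank replicate 1. HNRNPA1L2, a copy of HNRNPA1 with which it can share reads, was at 4.98, 4.59 and 4.39 against 3.5, 4 and 3.7 FPKM (-0.31 ± 0.0895, limma adjusted p = 0.0489). HNRNPA3 at -0.68 and HNRNPAB at -0.60 lay below all blank libraries without passing the test (limma adjusted p = 0.0650 and 0.0658), and HNRNPD at -0.17 ± 0.209 and HNRNPDL at -0.12 ± 0.227 overlapped the blank group.

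HNRNPC, the only tested gene of the hnRNP C family and a binder of uridine tracts that keeps cryptic exons out of mRNA, was at 86.0, 75.6 and 74.9 FPKM in blank and at 60.3, 58.0 and 59.7 with siSRSF1-2. The groups did not overlap and the log2 fold change was -0.41 ± 0.0709 (limma adjusted p = 0.0107). In the hnRNP F/H family, which binds runs of G, 1 of 4 genes was called, HNRNPH3, lower at 36.2, 37.4 and 37.2 FPKM against 62.0, 49.2 and 50.4 in blank (-0.53 ± 0.0983, limma adjusted p = 0.0124). Its relative HNRNPH2 lay above the blank group in all 3 libraries at 0.37 ± 0.116 (limma adjusted p = 0.0601), and HNRNPH1 was at -0.31 ± 0.225. The family's values thus lay on both sides of 0. Of hnRNP K, L, M and R with HNRNPLL, 1 of 5 was called: HNRNPM, an exon-silencing protein, fell from 88.4, 58.4 and 58.0 FPKM to 36.8, 38.6 and 38.6 (-0.82 ± 0.169, limma adjusted p = 0.0181). HNRNPK at -0.09 ± 0.125, HNRNPL at -0.44 ± 0.226 and HNRNPLL at -0.05 ± 0.0701 were not called. None of the 3 hnRNP U genes was called (median -0.13), and HNRNPU, a nuclear scaffold protein, was at 0.07 ± 0.130. HNRNPUL1 at -0.69 lay below all blank libraries without passing the test, at 25.5, 24.3 and 25.1 FPKM against 59.5, 33.7 and 32.3.

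Among the 14 RBM genes of the spliceosome, splice-site choice and the exon junction, 3 were called higher and 1 lower (median -0.09). The share called was 28.6%, against 26.8% of all genes. RBM25, which contacts the U1 particle at 5′ splice sites, was at 17.8, 12.3 and 12.3 FPKM in blank and at 22.9, 24.1 and 25.1 with siSRSF1-2. All siSRSF1-2 libraries lay above all blank libraries (0.78 ± 0.155, limma adjusted p = 0.0158). RBM48, a component of the minor spliceosome, was at 4.37, 3.00 and 2.91 FPKM in blank and at 6.21, 5.85 and 5.67 with siSRSF1-2 (0.79 ± 0.165, limma adjusted p = 0.0183), the largest rise among the members called. RBM5, a regulator of exon use in apoptosis genes, rose by 0.28 ± 0.0743 (limma adjusted p = 0.0375), from 7.45, 6.86 and 6.51 FPKM to 8.46, 8.30 and 8.59. Its relatives RBM6 at -0.14 ± 0.104 and RBM10 at -0.35 ± 0.156 were not called. RBMX2, a spliceosome protein, was lower at 7.87, 7.29 and 7.39 FPKM against 8.97, 10.3 and 10.8 in blank (-0.41 ± 0.0901, limma adjusted p = 0.0219). RBM39, a U2AF-related splicing factor, was at 0.36 ± 0.116 (limma adjusted p = 0.0685), and RBM8A, a core protein of the exon junction complex, at -0.01 ± 0.0779, RBM17 at -0.10 ± 0.187, RBM22 at -0.09 ± 0.135 and RBMX at -0.36 ± 0.138, none of them called.

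Of the 6 RBM genes linked to m6A or to nuclear RNA decay, 2 were called, both higher (median 0.21). That is 33.3% of them, against 14.0% of all genes called higher. RBM15, which brings the m6A writer complex to its RNA targets, was at 8.42, 7.08 and 7.31 FPKM in blank and at 12.1, 11.6 and 12.3 with siSRSF1-2. The rise of 0.66 ± 0.0856 had the smallest adjusted p of all members (limma, 0.00457). RBM33 rose by 0.38 ± 0.102 (limma adjusted p = 0.0406), from 2.66, 2.32 and 2.24 FPKM to 3.24, 3.24 and 2.97. Both tested ribosome biogenesis genes, RBM19 and RBM28, lay above all blank libraries at 0.26 and 0.35 without passing the test. Of the 4 cold- or stress-responsive and paraspeckle genes, RBM3 was called, higher by 0.34 ± 0.0961 (limma adjusted p = 0.0443) at 101, 94.4 and 94.0 FPKM against 87.1, 70.4 and 71.1, while RBM14, a paraspeckle protein, was at -0.12 ± 0.184 and RBM4 at 0.34 ± 0.149. Neither the 5 tested genes listed as tissue-restricted nor the 2 RBMS genes held a call. RBM20, the titin splicing factor of heart muscle, was at 0.13 ± 0.215, RBM38 at -0.09 ± 0.125 and RBMS1 at 0.06 ± 0.102. RBM38 was on the tissue-restricted list although its mean level was 24.9 FPKM, above the median of 4.06 for all tested genes. The remaining calls were RBM18, higher by 0.36 ± 0.0733 (limma adjusted p = 0.0168), and RBM43, lower at -0.49 ± 0.111 (limma adjusted p = 0.0237). They are 40.0% of 5 tested members with no common role, against 26.8% of all genes.

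**Figure D4:**
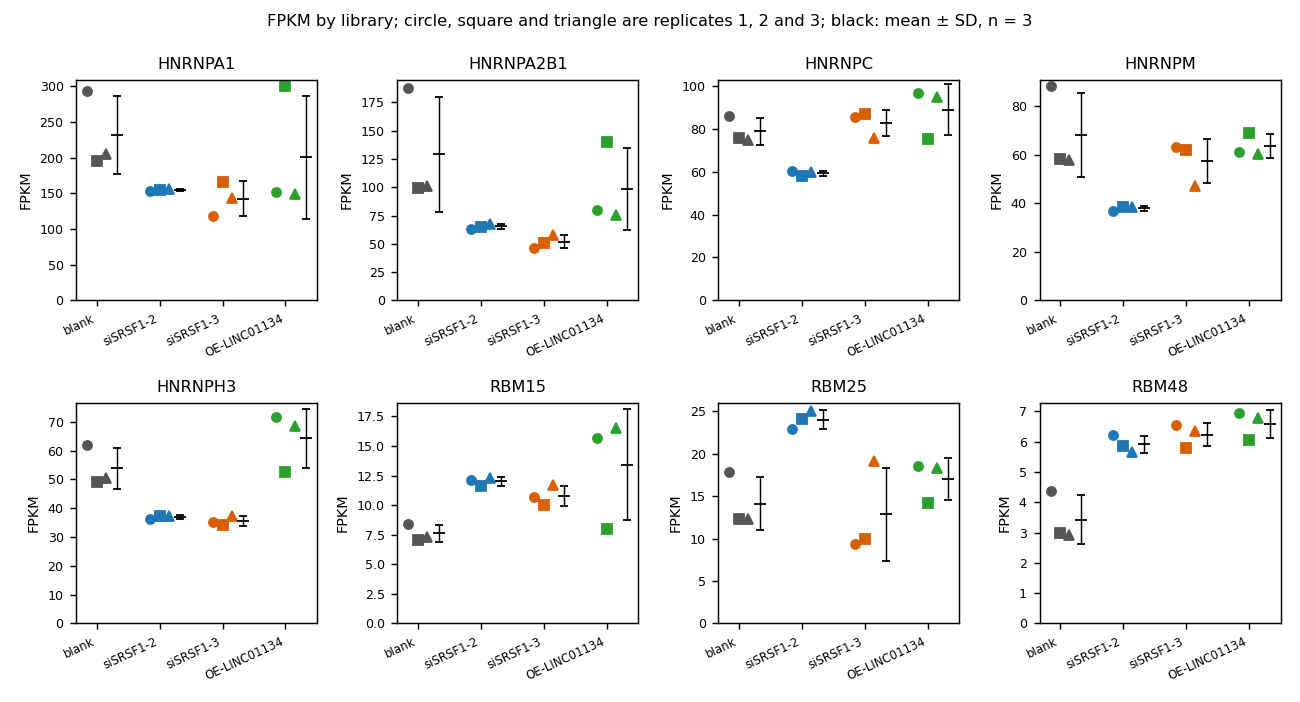
FPKM of 8 members in each library by group (points, shaped by replicate number) with mean ± SD, n = 3; each axis starts at 0. HNRNPA1, HNRNPA2B1, HNRNPC, HNRNPM and HNRNPH3 are lower in all 3 siSRSF1-2 libraries than in any blank library, and RBM15, RBM25 and RBM48 higher. In OE-LINC01134, replicate 2 (square) is high for HNRNPA1 and HNRNPA2B1 and low for RBM15.

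With siSRSF1-3 no member was called by limma against blank, where 1.28% of all genes were. At an unadjusted p under 0.05 there were 12 members, 4 higher and 8 lower, or 20.3% of 59, against 28.8% of all genes, and voom called 1, HNRNPA2B1, with 3.95% of all genes. The hnRNP genes again leaned low, with 20 of 22 below 0, where 49.3% of all genes lay above it, and a median of -0.31, which was -0.57 with each library's own read total and -0.76 with the same FPKM sum, where the medians of all genes were -0.26 and -0.43. No hnRNP gene lay above every blank library and 9 lay below, or 40.9%, against 18.0% of all genes. All 8 genes of the A/B and D family were below 0 (median -0.30), as were all 5 of K, L, M and R (median -0.45). Of the 14 RBM genes of the spliceosome list 9 were above 0 (median 0.10), and all 4 of the cold- or stress-responsive list were (median 0.18). Without blank replicate 1 the hnRNP median was -0.15 with 18 of 22 below 0, and with siSRSF1-3 replicate 1 left out as well it was -0.14 with 14 of 22 below 0. The RBM genes had a median of 0.10, which turned to -0.16 and -0.33 under those scalings. Both siRNAs were set against the same blank libraries, so their values are given side by side and not as independent evidence.

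Among the members that lay farthest from blank, several did so in the order of the siSRSF1-3 libraries' share of ribosomal protein reads. HNRNPA2B1 was low in all 3, at 46.6, 50.4 and 58.1 FPKM in replicates 1 to 3 against 188, 99.0 and 101 in blank (-1.26 ± 0.298, limma adjusted p = 0.0757, and -0.91 with siSRSF1-2). HNRNPH1 was at 10.4, 15 and 24.7 FPKM against 53.1, 30.2 and 30.2 in blank (-1.21 ± 0.373, limma adjusted p = 0.109), lowest where the ribosomal share was 18.9%. HNRNPL followed the same order at 10.1, 10.9 and 15.6 FPKM against 36.3, 20.3 and 21.0 (-1.05 ± 0.293, limma adjusted p = 0.0959). HNRNPK was at 69.7, 94.6 and 110 FPKM (-0.51 ± 0.260, limma adjusted p = 0.228).

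RBM8A ran the other way, at 62.5, 35.3 and 19.4 FPKM in siSRSF1-3 replicates 1 to 3 against 17.6, 15 and 15.4 in blank (1.13 ± 0.402, limma adjusted p = 0.132). RBM42 was at 179, 142 and 77.9 FPKM against 73.2, 62.6 and 59.9 (0.95 ± 0.332, limma adjusted p = 0.129), and RBMX2 at 31.2, 16.6 and 10.8 against 8.97, 10.3 and 10.8 (0.82 ± 0.371, limma adjusted p = 0.188). RBM22, a protein at the active site of the spliceosome, was at 29.8, 18.0 and 15.1 FPKM against 16.7, 12.3 and 12.1 (0.57 ± 0.290, limma adjusted p = 0.228). In each of these 4 genes replicate 3, with 7.95% of its reads on ribosomal protein genes, lay closest to blank. Without it 11 members were called against blank, 4 higher (RBM8A, RBM42, RBMX2, RBM48) and 7 lower, when 35.9% of all genes were. Leaving out blank replicate 1 or siSRSF1-3 replicate 1, alone or together, gave 0 calls among the members. Of all genes these fits called 0.165%, 0.0741% and 0.0%, in that order, so they say little about the members. The part of the ribosomal protein share in these values was not tested.

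**Figure D5:**
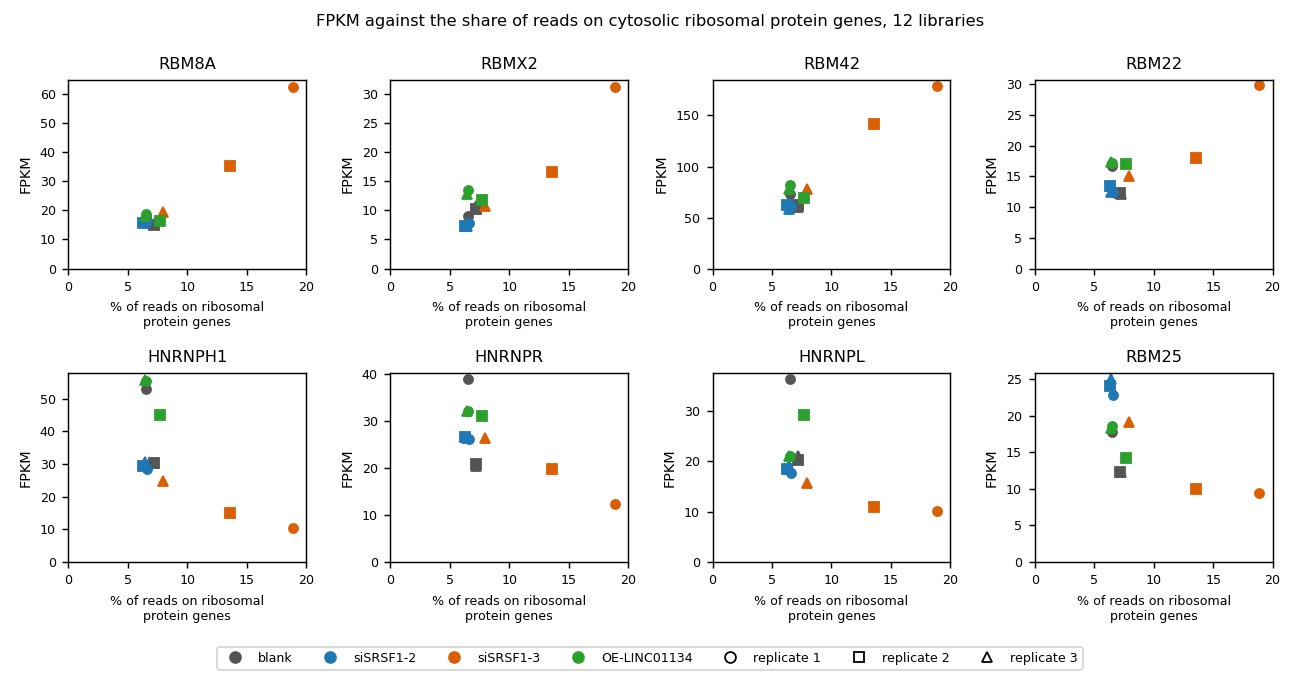
FPKM of 8 members in the 12 libraries against the percentage of each library's reads on cytosolic ribosomal protein genes. The 8 were chosen after their values were seen. RBM8A, RBMX2, RBM42 and RBM22 are highest in siSRSF1-3 replicate 1 (18.9%), and HNRNPH1, HNRNPR, HNRNPL and RBM25 are lowest there, while siSRSF1-3 replicate 3 (7.95%) lies near the other 9 libraries.

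Other members did not follow that order. RBM48 was at 6.55, 5.80 and 6.34 FPKM, above every blank library (0.87 ± 0.211, limma adjusted p = 0.0780). RBM15 was at 10.7, 10 and 11.7 FPKM, also above every blank library (0.50 ± 0.166, limma adjusted p = 0.119). HNRNPH3 was at 35.2, 34.1 and 37.4 FPKM, below every blank library and near the 36.2 to 37.4 of siSRSF1-2 (-0.59 ± 0.182, limma adjusted p = 0.109). In either direction siSRSF1-3 and blank did not overlap for 32.2% of the members and 37.2% of all genes. HNRNPA1 was at 118, 166 and 144 FPKM (-0.68 ± 0.272, limma adjusted p = 0.159), lowest in replicate 1 and highest in replicate 2. HNRNPC, called lower with siSRSF1-2, was at 85.4, 87.2 and 76.0 FPKM with siSRSF1-3, within or next to the blank range (0.07 ± 0.189).

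The 2 siRNAs were compared directly to ask whether they moved the members differently. No member was called by limma (0.0855% of all genes were), none by voom (0.867% of all genes), and 19 had an unadjusted p under 0.05, 8 higher and 11 lower with siSRSF1-3, or 32.2% against 42.1% of all genes. HNRNPM was at 63.3, 61.9 and 47.2 FPKM with siSRSF1-3 and at 36.8, 38.6 and 38.6 with siSRSF1-2 (0.58 ± 0.152, limma adjusted p = 0.0801). HNRNPC differed by 0.48 ± 0.123 (limma adjusted p = 0.0800). The groups did not overlap for either gene, which also held for 54.6% of all genes and 52.5% of the members. RBM25 was at 9.41, 10 and 19.2 FPKM with siSRSF1-3 and lay below the siSRSF1-2 group (-0.97 ± 0.282, limma adjusted p = 0.0834). Without siSRSF1-3 replicate 3, 26 members were called, 10 higher and 16 lower, when 61.2% of all genes were. Each other omission called 0 members and 0.0% to 0.12% of all genes, so it says little about the members. Across the 59 members the difference was lower for longer genes, with r = -0.427 and rho = -0.475 against log2 length, a description across genes, and over all tested genes r was 0.0343 and rho -0.191. The short RBM42, of 2206 bases, and RBMX2, of 2491 bases, were at 1.05 and 1.23, and RBM25, of 11859 bases, at -0.97. Other members ran the other way. RBM23, of 14022 bases, had a mean of 1.27 FPKM with siSRSF1-2 and 1.92 with siSRSF1-3. HNRNPH2, of 2223 bases, had means of 53.2 and 41.3.

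In OE-LINC01134 the RBM genes were mostly above blank, but no member was called by limma (1.18% of all genes were). Of 37 RBM genes 29 were above 0, against 54.9% of all genes, with a median log2 fold change of 0.22, and of 22 hnRNP genes 11 were, with a median of 0.01, where the median of all genes was 0.05. Without blank replicate 1 the hnRNP genes also leaned high, with 16 of 22 above 0 and a median of 0.16, and without OE-LINC01134 replicate 2 they did not, with 10 of 22 and -0.08, while the RBM genes had 31 and 28 of 37 above 0. At an unadjusted p under 0.05 there were 10 members, all RBM and all higher, or 16.9% of 59, against 14.0% of all genes higher at that p, and voom called 1, RBM48, with 2.86% of all genes. Of the 14 spliceosome genes 13 were above 0 (median 0.26), and all 6 linked to m6A or to nuclear RNA decay were (median 0.39). Of the 5 genes listed as tissue-restricted 1 was (median -0.19). RBM48 was at 6.95, 6.06 and 6.77 FPKM against 4.37, 3.00 and 2.91 in blank (0.95 ± 0.184, limma adjusted p = 0.0606). Its values in all 9 libraries outside the blank group lay between 5.67 and 6.95 FPKM, above each blank library, and these contrasts share the blank libraries.

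OE-LINC01134 replicate 2 weighed on these genes unequally. On the log2 scale it differed from the mean of replicates 1 and 3 by -1.0 for RBM15, -0.2 for RBM39 and -0.14 for RBM14. RBM15 was at 15.7 and 16.5 FPKM in OE-LINC01134 replicates 1 and 3 and at 8 in replicate 2, within the blank range of 7.08 to 8.42 (0.74 ± 0.279, limma adjusted p = 0.159). RBM39 was at 33.9, 29.7 and 34.5 FPKM against 26.6, 20.1 and 20.5 in blank (0.55 ± 0.142, limma adjusted p = 0.0874), and RBM14 at 32.7, 29.9 and 33.1 against 28.8, 18.2 and 18.8 (0.57 ± 0.19, limma adjusted p = 0.130). For both genes every OE-LINC01134 library lay above every blank library. In either direction the groups did not overlap for 32.4% of the RBM genes and 30.6% of all genes. Without OE-LINC01134 replicate 2, 9 members were called: RBM5, RBM15, RBM18, RBM26, RBM33, RBM39 and RBM48 higher and RBM3 and HNRNPA1P48 lower, when 25.5% of all genes were called. Without blank replicate 1, 9 members were called, all higher and 3 of them hnRNP, against 13.9% of all genes. Both libraries were also left out together, which was decided on after seeing them, and this gave 45 members called, 36 higher and 9 lower, against 59.7% of all genes, with 2 nearly identical libraries left in each group.

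A few members with low levels rested on few reads. RBM47, which did not pass the filter, was at 0.575, 0.548 and 0.558 FPKM in blank and at 0.145, 0.321 and 0.119 in OE-LINC01134, with no more than 174 reads in a library. RBMS3, also below the filter, was at 0.197, 0.198 and 0.153 FPKM in blank and at 0.341, 0.186 and 0.364 in OE-LINC01134. RBM20 was at 0.668, 1.16 and 0.996 FPKM in blank and at 0.567, 0.691 and 0.630 in OE-LINC01134 (-0.49 ± 0.273). The groups overlapped for RBM20 and RBMS3, and for RBM47 the values of OE-LINC01134 lay below all blank values.

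RNA-binding regulators of splicing that bear neither name were set beside the members. Of 39 listed genes 38 were matched to a single gene, since the full name of MATR3 is held by 2 identifiers, and 35 were tested. With siSRSF1-2, 6 of 35 were called, 5 higher and 1 lower (17.1%, against 26.8% of all genes), with a median log2 fold change of -0.07. QKI, a STAR-family regulator of exon use, rose by 0.82 ± 0.0581 (limma adjusted p = 0.00115), and the speckle scaffolds SRRM2 and SON rose by 0.62 ± 0.114 (limma adjusted p = 0.0125) and 0.54 ± 0.115 (limma adjusted p = 0.0190). TRA2A, an SR-related splicing activator, was lower at -0.66 ± 0.0542 (limma adjusted p = 0.00146). With siSRSF1-3, with OE-LINC01134 and between the siRNAs 0 of 35 were called by limma, with 8, 10 and 17 at an unadjusted p under 0.05. Of all 17538 tested genes, 5044 (28.8%), 4618 and 7390 (42.1%) were under that p, in the same order. The median log2 fold change of the list was -0.19, 0.15 and -0.12 in these 3 comparisons, and that of the 59 members -0.13, 0.16 and -0.08.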

How the data were processed

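RNA-seq of 12 U2OS libraries, 3 per group, was analysed. Per the labels and the study's methods, mRNA was selected with poly-T beads and read as 150 bp paired ends, although the labels name another library kit. The labels give the organism as mouse and the processing notes name mouse builds, while the gene identifiers are human. The paper places transient transfection in another osteosarcoma line. Aligner, counting program and strand setting are not given in the sources used here. The authors deposited FPKM per gene and library with gene lengths in bases, full names and coordinates. Of the 52 symbols looked up beside the members, 51 were matched by full name to a single gene. No human reference sequence was used here, so no sequence is printed.

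Reads were recovered because the product of FPKM and length came in whole steps (largest deviation 0.000156 of a read). Set against the reads counted, the size each step implies had a ratio of 0.712 in siSRSF1-3 replicate 1, 0.888 in siSRSF1-3 replicate 2 and 0.990 to 1.09 elsewhere, so the deposited FPKM carry a scaling between libraries. log2(FPKM + 0.1) of genes with a mean of at least 0.5 FPKM entered limma 3.58.1 (eBayes, trend on) under R 4.3.3, on the 3 + 3 libraries of each comparison, with Benjamini-Hochberg adjustment over 17538 genes. The fit was tested on counts simulated for siSRSF1-2 and blank with the same spread in every library. It recovered 171 of 200 changed genes with 8 false calls, and made 1 false call where 0 genes were changed. No simulated library was made to stand apart from its group, so this says nothing about calls that depend on such libraries. The study's own fold threshold, an absolute log2 fold change over 1, was counted beside each call. Replicate numbers did not pair the libraries (correlation of deviations between -0.0815 and 0.0420).

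The members and gene lists were chosen with earlier results of these data known. Members named with values were those called with a log2 fold change over 1, the 5 higher and 5 lower with the smallest adjusted p per comparison where called, the 5 with the highest level and 26 fixed by function, with SRSF1, LINC01134 and, of the other regulators, the 3 higher and 3 lower with the smallest adjusted p where called. Other members named were chosen after their values were seen. The alternatives changed the pseudocount (1 or 0.01), the filter (none, or at least 1 FPKM on average), the scaling or the model: median-of-ratios factors, the same FPKM sum, own read totals, eBayes without a trend, a joint fit of the 4 groups, voom, and replicate number as a block. Each library was also omitted in turn. Averaging nearly identical libraries and leaving out libraries that stand apart together were chosen after the data were seen. Splice isoforms were not examined, as the values are per gene.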

Additional observations from a re-analysis of the deposited data

Results flagged for a closer look

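In 9 of 59 tested members all libraries of each siRNA lay on opposite sides of the blank mean, which is 15.3%, against 13.2% of all tested genes. Against the mean of blank replicates 2 and 3 alone, 9 members again did, or 15.3%, against 13.6% of all tested genes. Of the first 9, 4 were among them, RBM41, RBM7, RBMS1 and RBMX2. The direct difference, siSRSF1-3 against siSRSF1-2 on the log2 scale, was 1.23 for RBMX2, 1.05 for RBM42, 0.65 for RBM22 and 0.33 for RBM14, each lower than the blank mean with siSRSF1-2 and higher with siSRSF1-3. The difference was -1.14 for RBM12B, -1.04 for RBM41, -0.49 for RBMS1, -0.34 for HNRNPU and -0.33 for RBM7, each higher with siSRSF1-2 and lower with siSRSF1-3. The test of the difference itself passed for none of the first 9, with limma adjusted p from 0.0792 for RBM41 to 0.132 for HNRNPU. RBM41, which has the smallest of these p-values, was at 1.73, 1.59 and 1.44 FPKM in blank, at 2.09, 1.93 and 2.04 with siSRSF1-2 and at 0.736, 0.799 and 1.37 with siSRSF1-3. RBM12B was at 4.15, 2.81 and 3.09 FPKM in blank, at 4.24, 4.34 and 4.47 with siSRSF1-2 and at 1.39, 1.5 and 3.33 with siSRSF1-3. In both genes siSRSF1-3 replicate 3 lay nearest to blank. With 3 samples a group no single library was tested as an outlier.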

How the results depend on the processing

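Against the 15 members called with siSRSF1-2, 4 were called with no filter (4.75% of all genes), 2 with a joint fit of all groups (3.76%), 7 with a replicate block (14.1%), and 0 with nearly identical libraries averaged (a lone siSRSF1-2 sample assumed to vary like blank, with no gene of the table called, so uninformative) or with a log2 fold change over 1 required, and omitting a library gave 1 to 37. Pseudocounts, a mean of at least 1 FPKM, median-of-ratios factors, the same FPKM sum, own read totals, no trend and voom kept the count between 10 and 22. Against 0 members with siSRSF1-3, the joint fit called 13 (27.8% of all genes) and voom 1, and omitting a library gave 0 to 11. Against 0 in OE-LINC01134, the joint fit called 3 (6.68% of all genes), voom 1, the same FPKM sum 1 (1.6%) and leaving out both libraries that stand apart 45, and omitting a library gave 0 to 9. Between the siRNAs the joint fit called 13 (32.3% of all genes), and omitting a library gave 0 to 26. In these 3 comparisons the replicate block gave 0. None of the 15 called members changed sign in any of the 18 alternatives. Without blank replicate 1, HNRNPDL and RBM15B, below 0 with siSRSF1-2, were called higher at 0.15 and 0.11, where omissions gave -0.27 to 0.15 and -0.10 to 0.11. The cause of these changes was not tested, except that omissions and averaging leave fewer libraries. With the same FPKM sum the median of all genes moved to 0.15, -0.43, 0.14 and -0.57 in the 4 comparisons, and that of the members to 0.04, -0.57, 0.25 and -0.65. SRSF1 stayed lower with both siRNAs, at -1.88 to -1.45 with siSRSF1-2 and at -2.53 to -1.44 with siSRSF1-3. LINC01134 stayed higher at 9.29 to 10.71.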

Other observations

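2 members with a low level showed their widest departure in single libraries. RBM11, a tissue-restricted splicing regulator, was at 1.03 FPKM in blank replicate 1 and at 2.79 and 2.58 in blank replicates 2 and 3, the reverse of most members, and at 1.30, 1.81 and 1.38 in OE-LINC01134. RBM24, a muscle splicing factor, was at 3.40 and 3.72 FPKM in OE-LINC01134 replicates 1 and 3 and at 1.46 in replicate 2, with 2.27, 3.15 and 3.20 in blank. RBM24 with siSRSF1-2 was at 1.57, 2.02 and 2.05 FPKM, below every blank library (log2 fold change -0.58 ± 0.178, limma adjusted p = 0.0584).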
